A study of Mus musculus with 19 samples.

Results

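The 9 genes Ly6a, Clu, Anxa1, Anxa3, Anxa8, Msln, Ctgf, Cyr61 and Ankrd1, which mark foetal-like regenerating gut epithelium or are targets of the co-activator Yap, were taken by symbol from a table of 32694 genes. All 9 were found, and all 9 passed the filter on low values. RNA was measured in 19 libraries of mice aged 12 weeks, 1 per mouse. There were 7 colon tumours of mice labelled heterozygous for Apc and null for Tgif1 and Tgif2 (Apc/Tgif tumours, 3 females and 4 males), 7 of mice labelled heterozygous for Apc alone (Apc tumours, 3 females and 4 males), and 5 of wild-type colon (3 females and 2 males). Villin-Cre, which acts in intestinal epithelium, made the deletions. By that design 1 Apc allele is deleted in the epithelium of both tumour groups, and the stroma and blood cells keep intact alleles. Which cells of the tumours carried the deletions was not examined, nor was the state of the other Apc allele. Apc restrains Wnt signalling, and Tgif1 and Tgif2 are related homeodomain repressors.

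After injury, gut epithelium can switch off part of its adult stem cell programme and switch on genes of the foetal gut. Ly6a and Clu mark cells in that state, and several annexins are raised with them. Yap and its relative Taz are held out of the nucleus by the kinases of the Hippo pathway. When released, they bind Tead factors on DNA and switch on targets such as Ctgf, Cyr61 and Ankrd1. The same targets respond to stretch and stiffness in fibroblasts, muscle and endothelium, which bulk tissue also contains.

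Tgif1 averaged 354 ± 137 normalized counts in Apc/Tgif tumours, 3815 ± 803 in Apc tumours and 964 ± 143 in wild-type colon (SD, n = 7, 7 and 5). Tgif2, summed over the whole gene, went against the label, with 2657 ± 352, 642 ± 92.1 and 161 ± 50.1 in the same order. Which part of Tgif2 was deleted is not given here, so this does not check the deletion, and directions for Apc/Tgif tumours rest on the label. The ribosomal transcript Rn45s made up 9.35% of the total in Apc/Tgif tumour replicate 5, and 2.93% and 3.50% in wild-type replicates 2 and 4, against at most 0.700% in the other libraries. Results that rest on these 3 libraries are given with and without them. Epithelial markers summed to between 325040 and 409925 normalized counts in Apc/Tgif tumours, between 275755 and 502079 in Apc tumours, against 428352 to 539900 in wild-type colon.

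In GRCm38 with GENCODE annotation, Ly6a lies at chr15:74994877-74998031, Clu at chr14:65968483-65981547, Msln at chr17:25748613-25754378, Anxa1 at chr19:20373428-20390944, Anxa3 at chr5:96793339-96845966 and Anxa8 at chr14:34085981-34100571. Ctgf lies at chr10:24595442-24598683, Cyr61 at chr3:145646976-145649981 and Ankrd1 at chr19:36111961-36120099. The values are sums over whole genes.

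Per kilobase of the longest coding transcript, the levels of the 9 genes spanned a wide range. Ly6a stood highest in each group, with 16913 ± 6842 normalized counts per kilobase in Apc/Tgif tumours, 15052 ± 3777 in Apc tumours and 15918 ± 7187 in wild-type colon (SD, n = 7, 7 and 5). Clu, Anxa1, Anxa8 and Anxa3 followed, with group means per kilobase between 2594 and 14389. Ctgf, Cyr61 and Msln came next, in that order in each group, and Ankrd1 was lowest, at 11.9 ± 11.6, 49.9 ± 30.9 and 10.5 ± 5.6 normalized counts per kilobase. The ranges per kilobase of Clu and Anxa1 in Apc/Tgif tumours overlapped, as did those of Anxa1 and Anxa3 in wild-type colon.

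**Figure D1:**
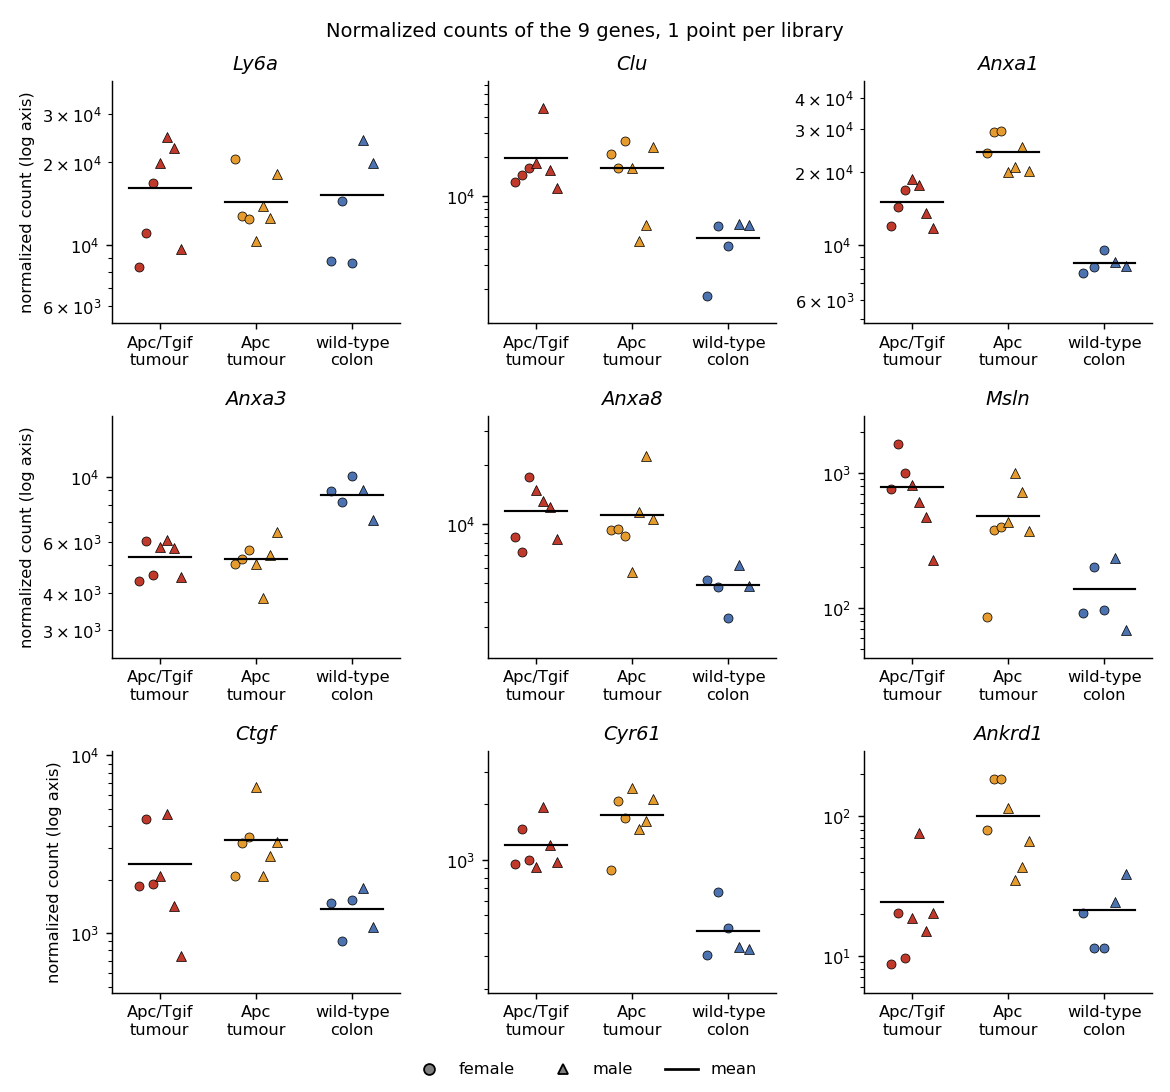
Normalized counts of the 9 genes on a log axis, with 1 point per library, circles for females, triangles for males and a bar for the mean of each group. Anxa1 and Anxa3 part the tumours from wild-type colon without overlap, Ly6a overlaps in all 3 groups, and the Apc/Tgif library of highest Ankrd1, at 76.1, lies within the range of Apc tumours.

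The comparison of Apc tumours with wild-type colon asked which of the genes differ in a tumour of mice labelled heterozygous for Apc. Of the 9 genes, 7 rose, Anxa3 fell and Ly6a did not pass the test. Of all 18445 genes tested, 49.1% passed in this comparison, 23.9% as higher and 25.2% as lower. The median log2 fold change was 1.51 over the 9 genes and -0.01 over all genes tested. P-values are from limma on log2(normalized count + 1), adjusted over all genes tested by the Benjamini-Hochberg method, with a threshold of 0.05. With equal library totals, the calls over all genes split into 6160 higher and 3417 lower, against 4415 and 4639 as deposited, and the median of all genes was 0.19. In males alone, with 2 wild-type libraries, 4 of the 9 passed (Anxa1, Anxa3, Msln and Cyr61). Of all 18445 genes, 3051 were higher and 3039 lower in males alone.

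Ly6a, the Sca-1 surface antigen, did not pass the test. It lay between 10398 and 20546 normalized counts in Apc tumours (median 12728), against 8775, 14514, 8597, 24173 and 19949 in wild-type colon. The groups overlapped, and both wild-type males (replicates 4 and 5) lay above the 3 wild-type females. Its log2 fold change was -0.07 (SE 0.27, 95% interval -0.65 to 0.50, limma adjusted p = 0.843). The interval reaches from 0.64-fold to 1.41-fold of the wild-type level. In females alone it was 0.52 and in males alone -0.71, and neither passed. Ly6a is also induced by interferon. Of 12 interferon-stimulated genes, 10 fell in Apc tumours (83.3%, against 25.2% of all genes). Their sum was 57092 and 68048 normalized counts in wild-type replicates 4 and 5, both males, against 6211 to 11178 in male Apc tumours. In females it was 12722, 21612 and 10445 in wild-type colon, against 9870, 17312 and 8406 in Apc tumours. Its part in the Ly6a result was not tested. Of the 881 stretches of 75 bases in the longest Ly6a transcript, 21 also occur in Ly6c1 or Ly6i, so a small share of reads could be split between them.

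Clu, a secreted chaperone that marks the rare stem cells of the regenerating crypt, rose 3.13-fold. It lay between 4571 and 26389 normalized counts in Apc tumours (median 16450), against 1763, 5986, 4237, 6231 and 6127 in wild-type colon. Apc tumour replicates 5 and 6 lay within the wild-type range, and the other 5 tumours were above it. The log2 fold change was 1.64 (SE 0.46, limma adjusted p = 0.00586), and without the 3 libraries of high Rn45s it was 2.01. In females alone it was 2.56, and in males alone it was 0.72 and did not pass (limma adjusted p = 0.450).

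Msln, the surface glycoprotein mesothelin of mesothelium and some tumours, rose 3.14-fold, at a low level. It lay between 85.5 and 991 normalized counts in Apc tumours (median 399), against 92.9, 200.4, 96.5, 235 and 68.95 in wild-type colon. A single Apc tumour, replicate 1, lay in the wild-type range. The log2 fold change was 1.65 (SE 0.53, limma adjusted p = 0.0142), and without wild-type replicate 5 it was 1.38 and did not pass. In females alone it was 0.94 and did not pass (limma adjusted p = 0.220), and in males alone it was 2.18. Markers of mesothelium ran the other way: 3 of the 4 measurable ones fell. The sum of the 7 lay between 33.3 and 190.2 normalized counts in Apc tumours, against 173 to 747 in wild-type colon. Their part in the Msln result was not tested.

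The 3 annexins, calcium-dependent membrane-binding proteins, did not behave alike. Anxa1, which also dampens inflammation, lay between 20024 and 29376 normalized counts in Apc tumours (median 23861), against 7715, 8188, 9558, 8541 and 8265 in wild-type colon. The groups did not overlap, and Anxa1 rose by 1.51 in log2 (SE 0.13, limma adjusted p = 3.81e-08). Anxa8 lay between 5674 and 22313 in Apc tumours (median 9435), against 5213, 4788, 3330, 6198 and 4858 in wild-type colon. It rose by 1.06 (SE 0.26, limma adjusted p = 0.00264), with only the lowest tumour inside the wild-type range. Anxa3 lay between 3848 and 6495 in Apc tumours (median 5231), against 8931, 8183, 10119, 9043 and 7133 in wild-type colon. Every tumour was below every wild-type library, and Anxa3 fell by 0.73 (SE 0.13, limma adjusted p = 0.000119). Squamous epithelium markers moved with Anxa8: all 5 measurable ones rose, and the sum of the 7 lay between 654 and 5511 in Apc tumours, against 59.4 to 134 in wild-type colon. Their part in the result was not tested.

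The 3 Yap targets all rose in Apc tumours. Cyr61, a secreted matrix protein, lay between 878 and 2434 normalized counts in Apc tumours (median 1692), against 305, 671, 426, 338 and 330.4 in wild-type colon. The groups did not overlap, and the log2 fold change was 2.07 (SE 0.25, limma adjusted p = 1.87e-06). Ctgf, its close relative, lay between 2096 and 6634 in Apc tumours (median 3214), against 1477, 907, 1528, 1803 and 1081 in wild-type colon. It rose 2.38-fold (log2 1.25, SE 0.38, limma adjusted p = 0.0109), again without overlap. Of the 2416 stretches of 75 bases in the longest Ctgf transcript, 146 also occur in Gm15270, which overlaps it on the other strand, and how such reads were shared out is not stated. Ankrd1, an ankyrin-repeat protein best known from stretched muscle, lay between 34.65 and 184 in Apc tumours (median 79.5), against 20.2, 11.4, 11.3, 24.4 and 38.7 in wild-type colon. It rose 4.16-fold (log2 2.05, SE 0.51, limma adjusted p = 0.00252), with 1 tumour inside the wild-type range. In females alone the log2 fold change of Ankrd1 was 3.24, and in males alone it was 0.90 and did not pass (limma adjusted p = 0.315).

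Cells other than epithelium express these targets, and in bulk tissue more cells of a type cannot be told apart from more RNA per cell. Of 9 fibroblast markers 4 rose and 2 fell, and their sum lay between 83871 and 175416 normalized counts in Apc tumours, against 58730 to 90813 in wild-type colon. Of 6 endothelial markers Cdh5 alone passed, as higher, and the median log2 fold change was 0.33. Their sum lay between 4996 and 8842 in Apc tumours, against 3606 to 4486 in wild-type colon. Smooth muscle markers ran the other way: all 10 fell, and their sum lay between 13463 and 23086 in Apc tumours, against 206707 to 306998 in wild-type colon. The part of fibroblasts and endothelium in the rise of the Yap targets was not tested.

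**Figure D2:**
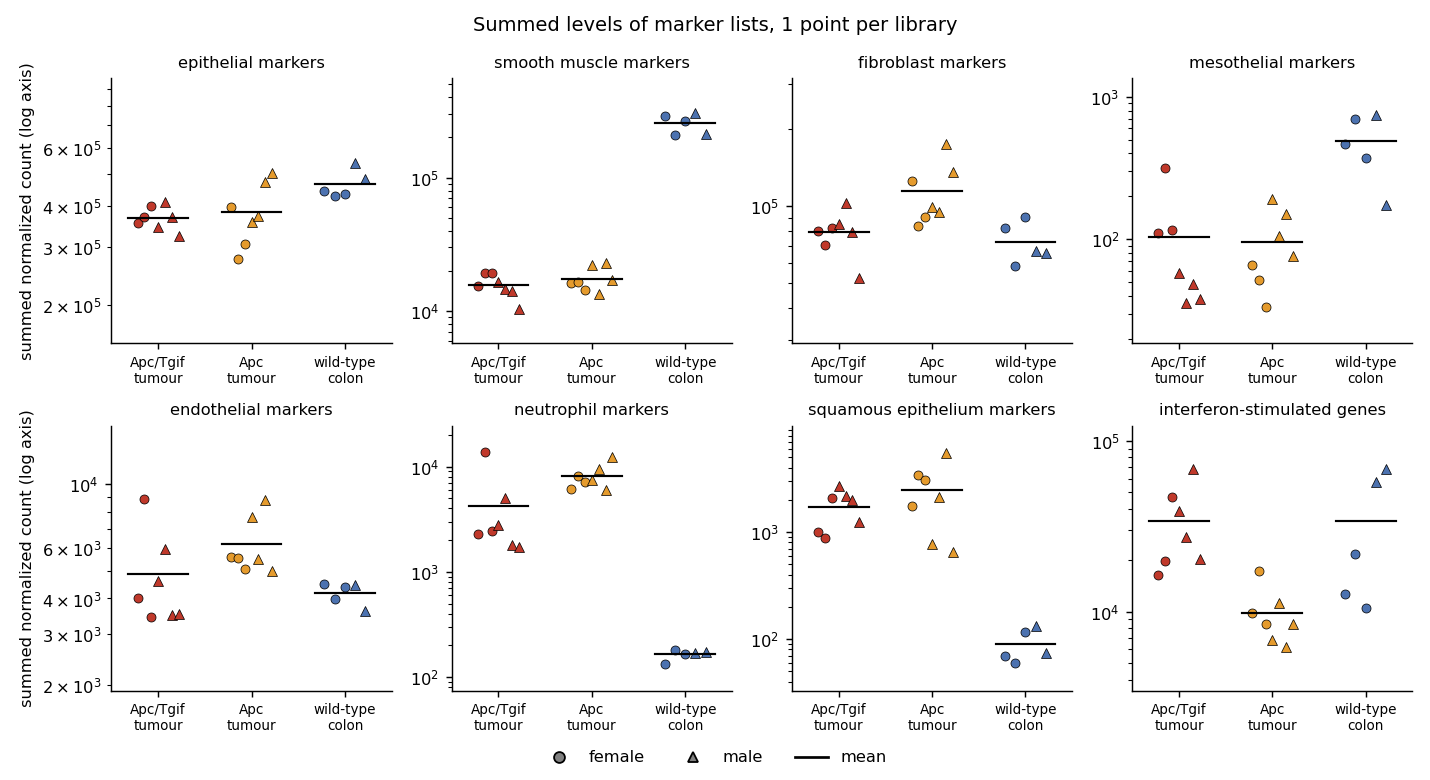
Summed normalized counts of 8 marker lists on a log axis, with 1 point per library, circles for females, triangles for males and a bar for the group mean. Smooth muscle markers lie at 23086 or less in the tumours and between 206707 and 306998 in wild-type colon, whereas the fibroblast sums of the 3 groups overlap.

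The promoters of 4 of the 9 genes (Anxa1, Anxa8, Cyr61 and Ankrd1) were matched in a RefSeq table of GRCm38.p6, each a window of 300 bases from 250 before the start of the gene as RefSeq gives it. The outermost GENCODE start lies 255 bases upstream of the RefSeq start for Ankrd1 and 273 bases upstream for Anxa1, so those windows lie inside the GENCODE genes given above. Both strands were searched for GGAATG, the core of the site that Tead factors bind, which reads CATTCC on the opposite strand. These letters occur in 14.7% of all 32851 such windows. Counted from the RefSeq start, Ankrd1 holds the motif at 210 to 205 and at 123 to 118 bases before it, Cyr61 at 103 to 98 and Anxa1 at 236 to 231. The Anxa8 window holds none of these letters. All 4 genes, Anxa8 included, rose in Apc tumours. The 3 windows that hold the motif are shown 5′ to 3′ on the strand of the gene, with the motif in capitals. They lie at chr19:36119795-36120094 (Ankrd1), chr3:145649936-145650235 (Cyr61) and chr19:20390622-20390921 (Anxa1), all on the minus strand. A match of 6 letters is a description of the sequence and not a measured binding site.
Ankrd1: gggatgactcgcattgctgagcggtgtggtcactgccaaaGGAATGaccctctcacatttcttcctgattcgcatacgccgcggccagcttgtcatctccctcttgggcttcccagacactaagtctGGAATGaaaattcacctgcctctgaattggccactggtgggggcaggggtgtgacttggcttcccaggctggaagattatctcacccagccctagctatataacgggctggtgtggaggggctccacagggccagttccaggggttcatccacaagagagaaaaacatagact
Cyr61: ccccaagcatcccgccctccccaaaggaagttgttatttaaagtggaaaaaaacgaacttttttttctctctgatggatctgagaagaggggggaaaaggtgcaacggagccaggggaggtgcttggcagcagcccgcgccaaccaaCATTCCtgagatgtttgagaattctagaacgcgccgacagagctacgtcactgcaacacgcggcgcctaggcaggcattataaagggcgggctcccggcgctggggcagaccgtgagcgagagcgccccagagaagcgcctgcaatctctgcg
Anxa1: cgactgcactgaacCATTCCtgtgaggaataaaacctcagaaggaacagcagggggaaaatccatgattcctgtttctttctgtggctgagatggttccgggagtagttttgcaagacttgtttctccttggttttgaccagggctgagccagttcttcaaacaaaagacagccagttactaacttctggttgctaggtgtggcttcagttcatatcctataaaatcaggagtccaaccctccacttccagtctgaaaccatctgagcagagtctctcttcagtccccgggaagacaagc

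**Figure D3:**
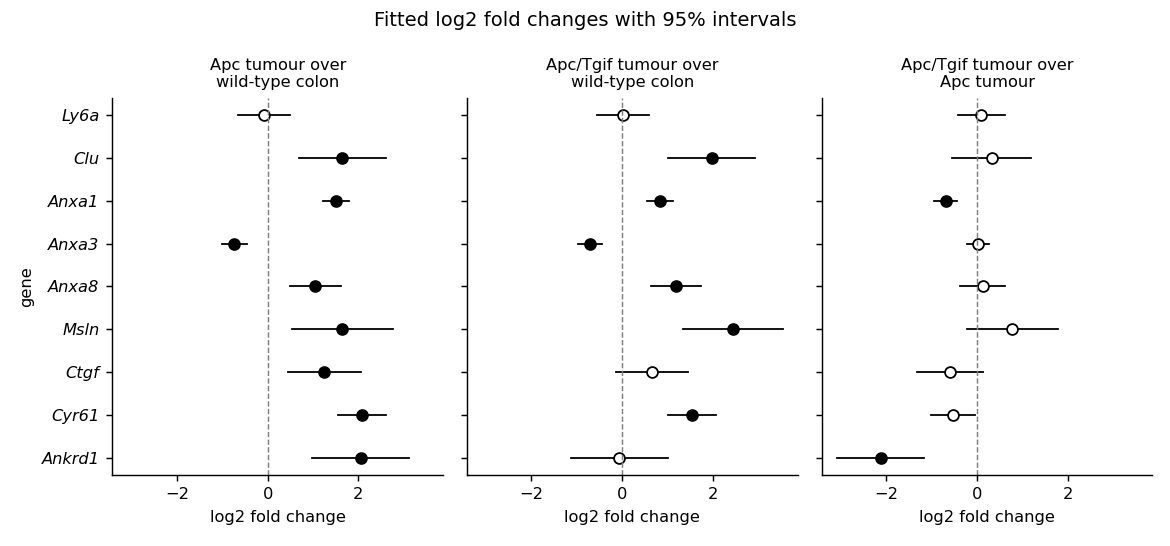
Fitted log2 fold changes of the 9 genes (points) with 95% intervals (lines) in the 3 comparisons, filled where the limma adjusted p was under 0.05. Ankrd1 sits at 2.05 in Apc tumours over wild-type colon, at -0.07 for Apc/Tgif tumours set over wild-type colon and at -2.12 between the tumours.

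Apc/Tgif tumours were then set against the same wild-type libraries, so the comparisons share their controls. Clu, Anxa1, Anxa8, Msln and Cyr61 rose, Anxa3 fell, and Ly6a, Ctgf and Ankrd1 did not pass. Of all genes tested 50.3% passed, 24.8% as higher and 25.5% as lower, and the median log2 fold change was 0.83 over the 9 genes and 0.00 over all genes. With equal library totals the split over all genes was 5810 higher and 3843 lower, against 4576 and 4708 as deposited, with a median of 0.15. In males alone 3 of the 9 passed, and of all 18445 genes 3927 were higher and 3916 lower.

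Clu lay between 11537 and 46792 normalized counts in Apc/Tgif tumours (median 15777), all above the highest wild-type value of 6231. Its rise was 3.92-fold (log2 1.97, SE 0.46, limma adjusted p = 0.00139). The highest value was that of Apc/Tgif tumour replicate 5, the library of highest Rn45s, and without the 3 libraries of high Rn45s the log2 fold change was 2.08. Msln lay between 226 and 1644 (median 763), with only the lowest tumour under the highest wild-type value, and rose 5.40-fold (log2 2.43, SE 0.53, limma adjusted p = 0.000764). It had the highest rise of the 9 genes in this comparison. The sum of the mesothelial markers lay between 35.5 and 318 in Apc/Tgif tumours, against 173 to 747 in wild-type colon.

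Anxa1 lay between 11817 and 18669 normalized counts in Apc/Tgif tumours (median 14397), above every wild-type library, and rose by 0.83 (SE 0.13, limma adjusted p = 4.12e-05). Anxa8 lay between 7243 and 17512 (median 12264), also above every wild-type library, and rose by 1.18 (SE 0.26, limma adjusted p = 0.000989). Anxa3 lay between 4406 and 6069 (median 5736), below every wild-type library, and fell by 0.71 (SE 0.13, limma adjusted p = 0.000136).

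Among the Yap targets only Cyr61 passed. It lay between 913 and 1929.9 normalized counts in Apc/Tgif tumours (median 997), above every wild-type library, and rose 2.91-fold (log2 1.54, SE 0.25, limma adjusted p = 4.53e-05). Ctgf lay between 740 and 4651 (median 1889.5) and overlapped the wild-type range. Its log2 fold change was 0.65 (95% interval -0.15 to 1.45, limma adjusted p = 0.166), and without Apc/Tgif tumour replicate 7, the lowest, it was 0.88 and passed. Ankrd1 lay between 8.70 and 76.1 (median 18.8), and 6 of 7 tumours lay within the wild-type range or below it. Its log2 fold change was -0.07 (95% interval -1.14 to 1.00, limma adjusted p = 0.923). Ly6a lay between 8344 and 24735 (median 16780), with a log2 fold change of 0.02 (95% interval -0.55 to 0.59, limma adjusted p = 0.959).

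The comparison of Apc/Tgif with Apc tumours asked what differs with the labelled loss of Tgif1 and Tgif2. Ankrd1 and Anxa1 fell, and none of the 9 genes rose over both sexes together. In females alone Msln rose by 2.20 (limma adjusted p = 0.0253). Of all genes tested 16.6% passed, 7.88% as higher and 8.76% as lower, so 2 of 9 is a share near the background. The median log2 fold change was 0.02 over the 9 genes and -0.01 over all genes. With equal library totals the split over all genes was 1080 higher and 1849 lower, against 1453 and 1615 as deposited. In males alone neither fall passed, and of all 18445 genes 1544 were higher and 1658 lower.

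Ankrd1 was 4.36-fold lower in Apc/Tgif tumours, with the log2 fold change at -2.12 (SE 0.46, limma adjusted p = 0.00368). Its 7 values in Apc/Tgif tumours were 8.70, 20.1, 9.61, 18.8, 76.1, 15.1 and 20.3 normalized counts, against 79.5, 184, 184, 114, 34.65, 43.55 and 66.1 in Apc tumours. Replicate 5 at 76.1 was the single Apc/Tgif tumour inside the Apc range, and without the 3 libraries of high Rn45s the log2 fold change was -2.46. At this level a value stands for few reads, so the counting error of single libraries is large. Anxa1 was 1.61-fold lower in Apc/Tgif tumours, at -0.69 in log2 (SE 0.12, limma adjusted p = 0.000757). The highest Apc/Tgif tumour, at 18669, lay below the lowest Apc tumour, at 20024.

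The other Yap targets had negative fold changes that did not pass. Cyr61 had a log2 fold change of -0.53 (95% interval -1.01 to -0.05, limma adjusted p = 0.125). It passed without Apc tumour replicate 1 (-0.70), without Apc/Tgif tumour replicate 5 (-0.65) and without the 3 libraries of high Rn45s (-0.65). Ctgf had -0.60 (95% interval -1.32 to 0.12, limma adjusted p = 0.269). Fibroblast markers moved with these genes: 3 of 9 fell and none rose, and their sum lay between 52510 and 102969 normalized counts in Apc/Tgif tumours, against 83871 to 175416 in Apc tumours. Their part in the result was not tested.

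The remaining genes did not pass between the tumours. Clu had a log2 fold change of 0.32 (95% interval -0.54 to 1.19), Msln 0.78 (-0.22 to 1.78), Anxa8 0.12 (-0.38 to 0.62), Anxa3 0.02 (-0.22 to 0.27) and Ly6a 0.09 (-0.43 to 0.61). The limma adjusted p lay at 0.301 for Msln and between 0.658 and 0.932 for the others. Of 12 interferon-stimulated genes, 11 rose in Apc/Tgif tumours over Apc tumours (91.7%, against 7.88% of all genes). Their sums lay between 16268 and 68192 normalized counts in Apc/Tgif tumours and between 6211 and 17312 in Apc tumours. Their part in the Ly6a result was not tested.

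The tumour comparison differed between the sexes for 2 of the 9 genes, in a model that gave each sex of each group its own mean. For Ankrd1 the effect in males minus that in females was 2.30 (SE 0.75, limma adjusted p = 0.0351). In females the values were 8.70, 20.1 and 9.61 in Apc/Tgif tumours, against 79.5, 184 and 184 in Apc tumours, and in males the groups overlapped. For Msln that difference was -2.48 (SE 0.81, limma adjusted p = 0.0351). Female Apc/Tgif tumours had 763, 1644 and 1004 normalized counts of Msln, against 85.5, 377 and 399 in female Apc tumours. Male Apc/Tgif tumours had 808, 611, 469 and 226, against 430, 991, 718 and 375 in male Apc tumours. The directions of the means were thus opposite between the sexes. The sum of the mesothelial markers was 110, 318 and 115 in female Apc/Tgif tumours, against 65.4, 51.9 and 33.3 in female Apc tumours. In males it was 58.1, 35.5, 48.2 and 38.2 in Apc/Tgif tumours, against 190, 106, 150 and 75.8 in Apc tumours. Its part in the Msln result was not tested. Among all genes 23.6% passed this interaction, so 2 of 9 is again near the background. Leaving out single libraries ended the call for Ankrd1 in 6 of 19 cases (Apc tumour replicates 2, 3, 5 and 6 and Apc/Tgif tumour replicates 1 and 3), with values of 1.79 to 2.70 over all cases. It ended the call for Msln in 7 (Apc tumour replicates 1, 5 and 6 and Apc/Tgif tumour replicates 2, 3, 6 and 7), with values of -2.86 to -1.76. No member passed the interaction in the comparisons with wild-type colon, where 0.0108% (Apc tumours) and 3.40% (Apc/Tgif tumours) of all genes did. At an unadjusted p under 0.05 limma counted 3 of the 9 in Apc tumours (Ly6a, Clu and Ankrd1) and 0 in Apc/Tgif tumours. The share of all genes at that unadjusted threshold was not counted, so these counts have no background beside them.

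The wider list of foetal and regenerative genes, 20 beside the 9, was mostly higher in Apc tumours than in wild-type colon. In that comparison 16 rose (80%, against 23.9% of all genes) and none fell, with a median log2 fold change of 1.62. All 5 neutrophil markers rose too, with sums between 6047 and 12223 normalized counts in Apc tumours, against 134 to 181 in wild-type colon, as did the 5 squamous markers given above. The part of either in the list's rise was not tested. Spp1, osteopontin, averaged 2787 ± 2593 normalized counts in Apc tumours and 6.07 ± 3.54 in wild-type colon (SD, n = 7 and 5), a log2 rise of 8.32 (limma adjusted p = 1.03e-08). Plaur, the urokinase receptor, averaged 2031 ± 534 and 198 ± 52.3, and Basp1, a membrane-bound signalling protein, 3246 ± 510 and 421 ± 127. In Apc/Tgif tumours against wild-type colon 11 of the 20 rose (55%, against 24.8% of all genes) and none fell, with a median of 0.61. Basp1 averaged 3693 ± 1017 in Apc/Tgif tumours. Without the 3 libraries of high Rn45s 8 rose.

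Between the tumours, 8 of these 20 genes fell in Apc/Tgif tumours and none rose, which is 40.0% lower against 8.76% of all genes, with a median of -0.46. Anxa10 is among the 8, and it passed the filter on low values only through Apc tumours. It reached at most 1.02 normalized counts in Apc/Tgif tumours and 1.55 in wild-type colon, so the filter fixed its direction in advance. In males alone 3 fell (Anxa5, Plaur and Emp1) and 1 rose, where 1658 of all 18445 genes were lower and 1544 higher. The gene that rose was Cd44 (log2 0.58, limma adjusted p = 0.0325). In females alone Cd44 fell (log2 -0.90, limma adjusted p = 0.00432), and over both sexes it did not pass. Neutrophil and macrophage markers were also compared between the tumours. Cxcr2 alone of 5 neutrophil markers fell (20%, against 8.76% of all genes). The neutrophil sums lay between 1739.8 and 4976 in 6 Apc/Tgif tumours and at 13620 in replicate 2, against 6047 to 12223 in Apc tumours. Of 6 macrophage markers 5 rose (83.3%, against 7.88% of all genes). The macrophage sums lay between 8529 and 13875 in Apc/Tgif tumours, against 5865 to 7751 in Apc tumours. Their part in the result was not tested.

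The Egf receptor ligands Ereg and Areg were among the 8 that fell: Ereg averaged 569 ± 168 normalized counts in Apc/Tgif tumours and 2581 ± 1682 in Apc tumours (log2 -1.92, limma adjusted p = 0.00207), and Areg 416 ± 176 and 1354 ± 704 (log2 -1.64, limma adjusted p = 0.00137). Il33, an alarmin cytokine, averaged 534 ± 404 and 2153 ± 1554 (log2 -2.15), but its difference depended on sex (4.41, males minus females, limma adjusted p = 0.000439). In females Il33 was 261, 75.5 and 136 in Apc/Tgif tumours, against 2718, 3520.4 and 4738 in Apc tumours. In males it was 592, 1202, 697 and 777 in Apc/Tgif tumours, against 1304, 935, 476 and 1379.9 in Apc tumours, with a log2 fold change of -0.26 that did not pass. The sex interaction also passed for Anxa5 and Gja1 among the 8. Emp1, an epithelial membrane protein, averaged 5444 ± 2219 and 18920 ± 11960 (log2 -1.60, limma adjusted p = 0.00608). The others were Anxa5, Gja1, Plaur and Anxa10.

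**Figure D4:**
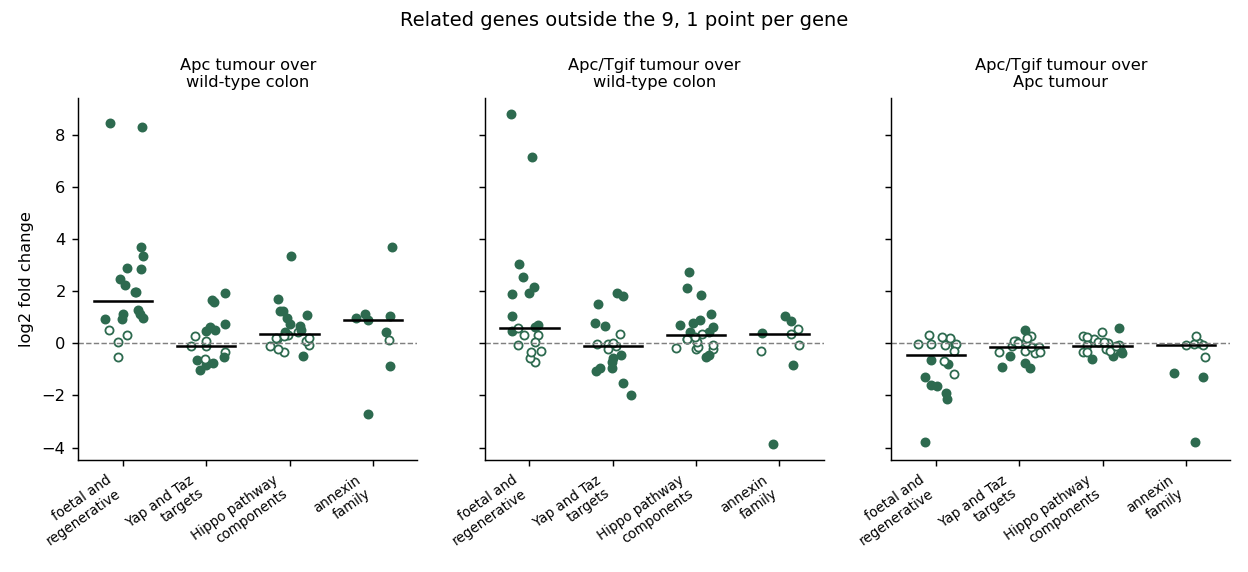
Log2 fold changes of genes beside the 9 in 4 lists and 3 comparisons, with 1 point per gene, filled where the limma adjusted p was under 0.05 and a bar for the median of the list. The foetal and regenerative list has medians of 1.62, 0.61 and -0.46 in the 3 panels, and the medians of the Yap and Taz targets lie at -0.09, -0.08 and -0.15.

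A list of Yap and Taz targets did not move in 1 direction. Of 19 genes beside Ctgf, Cyr61 and Ankrd1, 7 rose and 6 fell in Apc tumours against wild-type colon, with a median of -0.09. These shares, 36.8% and 31.6%, stand against 23.9% and 25.2% of all genes. F3, tissue factor, averaged 7625 ± 1521 in Apc tumours and 2063 ± 667 in wild-type colon (log2 1.93, limma adjusted p = 3.05e-07). Igfbp3, which binds insulin-like growth factors, averaged 3887 ± 1492 and 1214 ± 372 (log2 1.67), and Rbms3, an RNA-binding protein, 2032 ± 772 and 660.1 ± 184 (log2 1.61). Crim1, a transmembrane BMP modulator, fell by 0.84. In females alone 3 rose, where 3928 of all 18445 genes did. In males alone 1 fell, where 3039 of all 18445 genes did. In Apc/Tgif tumours against wild-type colon 5 rose and 8 fell, with a median of -0.08. The shares were 26.3% and 42.1%, against 24.8% and 25.5% of all genes. Nt5e, the ectonucleotidase CD73, averaged 2867 ± 623 in Apc/Tgif tumours and 7908 ± 910.2 in wild-type colon (log2 -1.52, limma adjusted p = 1.64e-06). Between the tumours Nt5e, Arhgef17, Dock5 and Fjx1 fell and the kinase Nuak2 rose (log2 0.52). That is 21.1% of the list lower and 5.26% higher, against 8.76% and 7.88% of all genes. Nt5e averaged 5445 ± 1814 in Apc tumours (log2 -0.89). Arhgef17, a guanine nucleotide exchange factor, averaged 1066 ± 132 in Apc/Tgif tumours and 1772 ± 103 in Apc tumours without overlap (log2 -0.74, limma adjusted p = 8.23e-05). In males alone 7 fell and none rose, where 1658 of all 18445 genes were lower and 1544 higher.

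Of 22 components of the Hippo pathway itself, 10 (45.5%) were higher in each comparison with wild-type colon. Of all genes tested, 23.9% were higher in Apc tumours and 24.8% in Apc/Tgif tumours. In Apc tumours Tead3 alone fell, and in Apc/Tgif tumours Tead3 and the kinase gene Lats2 did. Tead2, a DNA-binding partner of Yap, averaged 1579 ± 569 normalized counts in Apc/Tgif tumours, 2351 ± 491 in Apc tumours and 221 ± 47.8 in wild-type colon. The angiomotin Amot averaged 5431 ± 1522, 4012 ± 1008 and 1250 ± 385 in the same order. Yap1 averaged 6096 ± 700.3, 6612 ± 1076 and 4025 ± 586, and it rose over wild-type colon by 0.62 in Apc/Tgif tumours and 0.73 in Apc tumours. Wwtr1, which encodes Taz, rose by 0.69 and 0.97. Between the tumours Tead2, Sav1 and Fat1 fell, by 0.61, 0.49 and 0.37, and Vgll4, a competitor of Yap for Tead, rose by 0.60 (limma adjusted p = 0.00166). That is 13.6% of the list lower and 4.55% higher, against 8.76% and 7.88% of all genes.

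Relatives of the 9 genes were looked at by family. Of the 9 annexins beside Anxa1, Anxa3 and Anxa8, 6 rose and 2 fell in Apc tumours over wild-type colon. These shares, 66.7% and 22.2%, stand against 23.9% and 25.2% of all genes. Anxa2 averaged 49434 ± 10930 in Apc/Tgif tumours, 51552 ± 8335 in Apc tumours and 23015 ± 2682 in wild-type colon. Anxa13, an annexin of differentiated intestinal epithelium, averaged 37.2 ± 16.9, 76.7 ± 23.7 and 490.0 ± 50.6. Anxa5, which binds phosphatidylserine, averaged 2004 ± 520.1 in Apc/Tgif tumours and 4875 ± 1029 in Apc tumours, a log2 fold change of -1.29 (SE 0.17, limma adjusted p = 5.08e-05), and the tumour genotypes did not overlap.

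Anxa10, named after its values were seen, averaged 0.146 ± 0.386 normalized counts in Apc/Tgif tumours, 23.0 ± 16.2 in Apc tumours and 0.310 ± 0.693 in wild-type colon. It passed the filter only through Apc tumours. Of the 4 genes of the CCN family beside Ctgf and Cyr61, 3 passed the filter. Nov and Wisp1 fell between the tumours, as did 8.76% of all genes. Nov averaged 285 ± 224 in Apc/Tgif tumours, 2566 ± 1566 in Apc tumours and 1702 ± 892 in wild-type colon (log2 -3.29 between the tumours, SE 0.48, limma adjusted p = 0.000138), and the tumour genotypes did not overlap. Of the 10 Ly6 relatives that passed the filter, Ly6e rose and Ly6g and Ly6g6c fell between the tumours. These shares, 10% and 20%, stand against 7.88% and 8.76% of all genes. Ly6d averaged 5781 ± 2637 in Apc/Tgif tumours, 3331 ± 4012 in Apc tumours and 371 ± 196 in wild-type colon.

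The 9 genes did not rise and fall together from tumour to tumour in a way that passed correction. All 36 pairs were correlated on the log2 scale within the 7 Apc/Tgif tumours and within the 7 Apc tumours, and of these 72 relations none passed in an exact permutation test after adjustment (smallest adjusted p = 0.368 for Pearson's r and 0.464 for Spearman's rho). For Ctgf and Cyr61, r was 0.74 in Apc/Tgif tumours (rho 0.46, exact permutation p = 0.0694 and 0.302) and 0.78 in Apc tumours (rho 0.86, exact permutation p = 0.0502 and 0.0238). Without the 2 libraries farthest from the median of Ctgf, r was 0.62 and 0.91.

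The genes most like each member were sought by Pearson's r over the 14 tumours after removing the mean of each genotype, among 12858 genes. These are the highest of many values and serve as a description. Clu was most like Actn1 (r = 0.92) and Capn6 (0.92), Ankrd1 like Hmox1 (0.92) and Zfp57 (0.90), and Msln like Pdlim4 (0.91) and Tef (0.90). Anxa8 was most like Ly6g6e and Slc46a1 (0.91 each), and Ctgf and Cyr61 had the same nearest gene, Arg2 (0.87 and 0.81). Ly6a was most like Anxa2 (0.85) and the proteasome activator Psme2 (0.84). The libraries share the genotype means that were removed, and sex and depth were not.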

How the data were processed

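Poly-A RNA was read as single ends of 75 bases. The authors deposited 1 table of normalized counts per gene (a signal that is not whole), and the submitters' processing notes name Salmon, DESeq2, GRCm38 and mm10, with versions not given in the sources used here. Low values, under 15, were multiples of a step in 83.1% to 86.7% of cases (tolerance 0.1), too few to recover reads. The approximate depth was 28559991 to 49087891 counts per library.

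Groups and sexes came from the labels. Values were taken as log2(normalized count + 1), and 18445 genes with at least 10 in at least 5 libraries were fitted with limma 3.58.1 (R 4.3.3; trend, robust) on group and sex in all 19 libraries. P-values were adjusted over all genes (threshold 0.05). On simulated data for Apc/Tgif against Apc tumours, over 17952 genes, 75 of 100 changes of 2-fold and 96 of 100 of 4-fold were recovered. Changes were set only in genes of higher level, so the recovery does not cover genes as low as Ankrd1. Far fewer genes were changed there than the 3068 that passed in the data. Alternatives covered scaling, filter, pseudocount, sex and single libraries. The 9 genes and all lists were chosen with earlier results of these data known. Genes beside the 9 were named by rule: up to 4 per list and comparison that passed with a mean over 19 libraries of 100 or more, taken by absolute fold change. Yap1, Wwtr1, Tead3, Lats2, Fjx1, Gja1, Cd44, Anxa10 and Ly6g6c were named after their values were seen. A gene that the rule names is not reported here.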

Additional observations from a re-analysis of the deposited data

Results flagged for a closer look

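Single libraries stood far from the rest of their group in 8 of 69 sets of values, where chance alone gives about 3.45 (1 in 20). Clu was 46792 normalized counts in Apc/Tgif tumour replicate 5, against 18018 in the next highest. Ankrd1 was 76.1 in the same library, against 20.3. That library also had the highest Rn45s, and the part of Rn45s in these values was not tested. Anxa8 was 22313 in Apc tumour replicate 6, against 11606 in the next, and Ctgf was 6634 in Apc tumour replicate 4, against 3458.

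Among the marker sums, colon identity reached 35796 in Apc/Tgif tumour replicate 4, against 18962 in the next. Apc/Tgif tumour replicate 2 was highest for mesothelial markers (318, against 115) and for neutrophil markers (13620, against 4976). Crypt stem cell genes were lowest in wild-type replicate 5, at 7641, against 8343 in the next lowest.

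The effect of Apc/Tgif over Apc tumours differed between males and females for Msln (-2.48, males minus females) and for Ankrd1 (2.30), each at a limma adjusted p of 0.0351, with 3 females and 4 males per genotype.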

How the results depend on the processing

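The 27 fold changes of the 9 genes were refitted under 33 settings, and 836 of 891 values kept direction and call, 11 lost a call, 5 gained one and 39 changed sign. Every sign change was in a value that had not passed. For Ly6a in Apc tumours over wild-type colon the values were 0.0873 (quantile normalization), 0.13 (equal library totals), 0.00725 (no sex term), 0.52 (females, against -0.71 in males) and 0.21 (without the 3 libraries of high Rn45s, chosen after seeing the data), and -0.24 to 0.0838 leaving out single libraries. For Ly6a with Apc/Tgif tumours set over wild-type colon they were -0.0548 (1 mean per group and sex), -0.0416 (only the groups compared), -0.28 (males), -0.0159 (quality weights) and -0.10 to 0.18 leaving out single libraries. For Ankrd1 there they were 0.28 (quantile), 0.0741 (equal totals) and -0.36 to 0.20. Between the tumours, Ly6a had -0.35 (females, against 0.43 in males), -0.00391 (without the 3) and -0.0175 to 0.24, Clu -0.52 (females, against 0.96 in males), and Msln -0.28 (males, against 2.20 in females, which passed). Anxa3 had -0.0279 (quantile), -0.0282 (equal totals), -0.0935 (females), -0.0172 (without the 3) and -0.0536 to 0.0783, and Anxa8 -0.0461 to 0.30.

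In males alone, 0 of the 9 genes passed between the tumours, 4 in Apc tumours and 3 with Apc/Tgif tumours set over wild-type colon. Between the tumours, 1 other foetal gene rose in females and 1 in males, and 3 fell in males. Of the other Yap targets there, 0 rose in males or with no sex term, and 2 fell in females and 7 in males. In Apc tumours over wild-type colon 3 rose in females and 1 fell in males. With Apc/Tgif tumours set over wild-type colon 1 other foetal gene fell in females, and 0 to 1 leaving out single libraries. The sex interaction between the tumours passed for 0 to 2 of the 9. These subsets hold fewer samples, and the counts over all genes in males alone are given above.

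No paired analysis was possible because the labels give the groups no shared replicate numbers. Levels of Ankrd1 limit its precision, and the depth of each library is approximate.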
